A study of Mus musculus with 54 samples.

Results

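The genes described here are 38 that act in DNA replication and at the G1/S transition, the step at which a cell commits to copying its genome. They were chosen by name, not by their values, and all 38 were measured among the 19920 genes of the array that had a probe set listed with a single symbol. Of several probe sets for a gene, the one with the highest mean over the 27 arrays was read. The cells were Ba/F3-gp130, a mouse line labelled pro-B and dependent on Hyper-IL-6, in which interleukin-6 and its soluble receptor are joined in a single protein that signals through the receptor chain gp130. The 9 groups held 3 arrays each. Ba/F3-gp130 cells without a further construct (parental) made up 1 line, and the other 3 (CIR-1 to CIR-3) were each transfected with a Cargo Internalization Receptor construct. Every line was either unstimulated or given GFP-PFC, a perfluorocarbon emulsion carrying the name of green fluorescent protein, at 50 µl in 1 ml for 1 h. The ninth group was parental cells given 100 ng/ml Hyper-IL-6 for 1 h as the positive control of stimulation. All groups had grown in 10 ng/ml Hyper-IL-6, had been washed 4 times and had then spent 3 h without serum. The cells of every array had thus been withdrawn from their growth factor for some hours, and only the ninth group was given it again. The stated aim of the arrays was to detail the influence of the constructs on the cells. The labels name no promoter for the constructs, do not say whether a CIR line is a clone or a pool, and do not tell if a group's 3 arrays are separate cultures, so p-values measure the spread between these arrays only.

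Replication is prepared in G1, when CDC6 and CDT1 load the MCM2-7 helicase onto origins, and begins when CDC45 and the GINS complex join the helicase and start it unwinding DNA. DNA polymerases alpha and epsilon, the PCNA clamp, the RFC clamp loaders, FEN1 and DNA ligase I then copy the strands and seal the fragments. Cyclin E and the E2F transcription factors drive this entry into S phase, and many of the genes concerned are known E2F targets. In a growth-factor-dependent blood cell line, the cytokine sets whether cells pass this step.

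The labelled cell type was checked first against marker genes. Of 15 pro-B markers, 8 lay above the lower quartile of all genes, including Cd79a (mean log2 signal 9.76), Tcf3 (11.013) and Ikzf1 (11.3), while Ebf1 (5.92), Il7r (5.27), Rag1 (6.29) and Blnk (6.34) did not. The IL-3 receptor chain gene Csf2rb had a mean of 13.4, and 6 of 7 erythroid and 7 of 10 myeloid markers were also above that quartile, with Gata1 at 10.9 and Prtn3 at 12.7. So were 4 of 6 T cell markers and 5 of 10 mast cell and basophil markers. Most genes lie above a lower quartile by definition, so these counts do not tell the cell types apart. Mouse Il6st, which encodes gp130, had a mean of 6.35 and was not above the quartile. Array medians lay between 7.521 and 7.646. Arrays stood apart by the number in their labels. Numbers run 1, 3 and 5 in unstimulated groups and 2, 4 and 6 in stimulated groups, and the arrays numbered 1 and 2 differed from the later numbers in 41.9% of all genes, so the comparisons of lines below are given also with the number as a block and without those arrays.

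Promoter sequences of the members were compared first, since E2F control is what these genes are best known to share. RefSeq (GRCm38.p6) windows of 300 bases, running from 250 before to 50 after the annotated start, were at hand for 31 of the 38 genes. The windows were searched on both strands for 4 E2F-type octamers, TTTCCCGC, TTTGGCGC, TTTCGCGC and TTTGCCGC, which can overlap each other when read from opposite strands, and for the CCAAT box. An octamer was found for 12 of 31 members (38.7%), against 2.60% of all genes with a window and 2.26% of all windows. Counted by window, 12 of the members' 37 windows (32.4%) held one. The 12 genes were Cdc6, Cdt1, E2f2, Lig1, Mcm3, Mcm5, Mcm6, Mcm7, Pola1, Pole2, Rfc3 and Uhrf1. CCAAT was found for 18 of 31 members (58.1%), against 41.1% of all genes and 37.4% of all windows. For members on which the line comparison below turns, 4 windows are printed, 5′ to 3′ on the gene's strand and with matches in capitals. Lig1 (chr7:13278576-13278875, plus strand) holds 1 octamer after its start while the other 2 Lig1 windows hold none, Rfc3 (chr5:151651159-151651458, minus strand) holds a pair of octamers on either side of its start, Mcm6 (chr1:128359656-128359955, minus strand) holds 3 octamer matches and 2 CCAAT boxes, and Rrm2 (chr12:24708004-24708303, plus strand) holds a CCAAT box with 45 bases between it and its start, and no octamer.
Lig1: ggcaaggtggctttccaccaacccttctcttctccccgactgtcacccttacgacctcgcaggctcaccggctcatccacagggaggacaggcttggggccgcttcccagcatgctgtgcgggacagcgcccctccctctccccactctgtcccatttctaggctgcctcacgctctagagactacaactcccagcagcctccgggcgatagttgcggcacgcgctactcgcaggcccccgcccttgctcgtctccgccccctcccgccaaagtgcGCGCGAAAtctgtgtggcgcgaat
Rfc3: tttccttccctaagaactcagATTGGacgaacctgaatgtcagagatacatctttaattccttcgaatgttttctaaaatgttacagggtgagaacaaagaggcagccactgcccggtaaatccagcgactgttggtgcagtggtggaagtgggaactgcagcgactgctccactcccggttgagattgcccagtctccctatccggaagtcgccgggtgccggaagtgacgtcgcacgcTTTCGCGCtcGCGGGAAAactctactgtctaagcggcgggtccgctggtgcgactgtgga
Mcm6: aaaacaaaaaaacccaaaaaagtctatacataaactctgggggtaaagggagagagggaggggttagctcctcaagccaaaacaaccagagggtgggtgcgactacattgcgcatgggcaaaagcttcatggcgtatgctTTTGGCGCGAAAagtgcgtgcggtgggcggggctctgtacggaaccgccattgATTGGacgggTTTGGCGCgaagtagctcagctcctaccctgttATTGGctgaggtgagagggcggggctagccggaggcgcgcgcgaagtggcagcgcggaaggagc
Rrm2: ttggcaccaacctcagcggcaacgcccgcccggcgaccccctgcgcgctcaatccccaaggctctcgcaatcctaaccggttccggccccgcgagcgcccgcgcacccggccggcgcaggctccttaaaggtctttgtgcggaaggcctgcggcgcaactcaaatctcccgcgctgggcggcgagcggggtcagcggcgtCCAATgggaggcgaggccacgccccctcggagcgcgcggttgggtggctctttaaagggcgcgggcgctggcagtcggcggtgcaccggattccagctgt
Of the 9 members with a window that were lower in at least 1 CIR line (below), 5 held an octamer, and of the 22 other members with a window, 7 did. A match is a string of letters and not a measured binding site.

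All 38 genes gave a clear signal. None had a mean below the lower quartile of the genes, and single values ran from 9.275 to 13.783 on the log2 scale. Pcna, which encodes the sliding clamp, had the highest mean of the members (13.7), followed by Rrm1 (13.2) and Mcm7 (12.9), and the lowest means were those of E2f2 (9.67), Ung (9.68) and Dscc1 (9.71). These are signals of different probes and give no order of RNA amounts. In the map of deviations from each gene's mean, the parental arrays stood on the high side. The median deviation of the 38 genes was between 0.024 and 0.138 in all 9 parental arrays, those with Hyper-IL-6 included, -0.075 to 0.034 for CIR-1, -0.1 to -0.01 for CIR-2 and -0.11 to 0.058 for CIR-3.

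**Figure D1:**
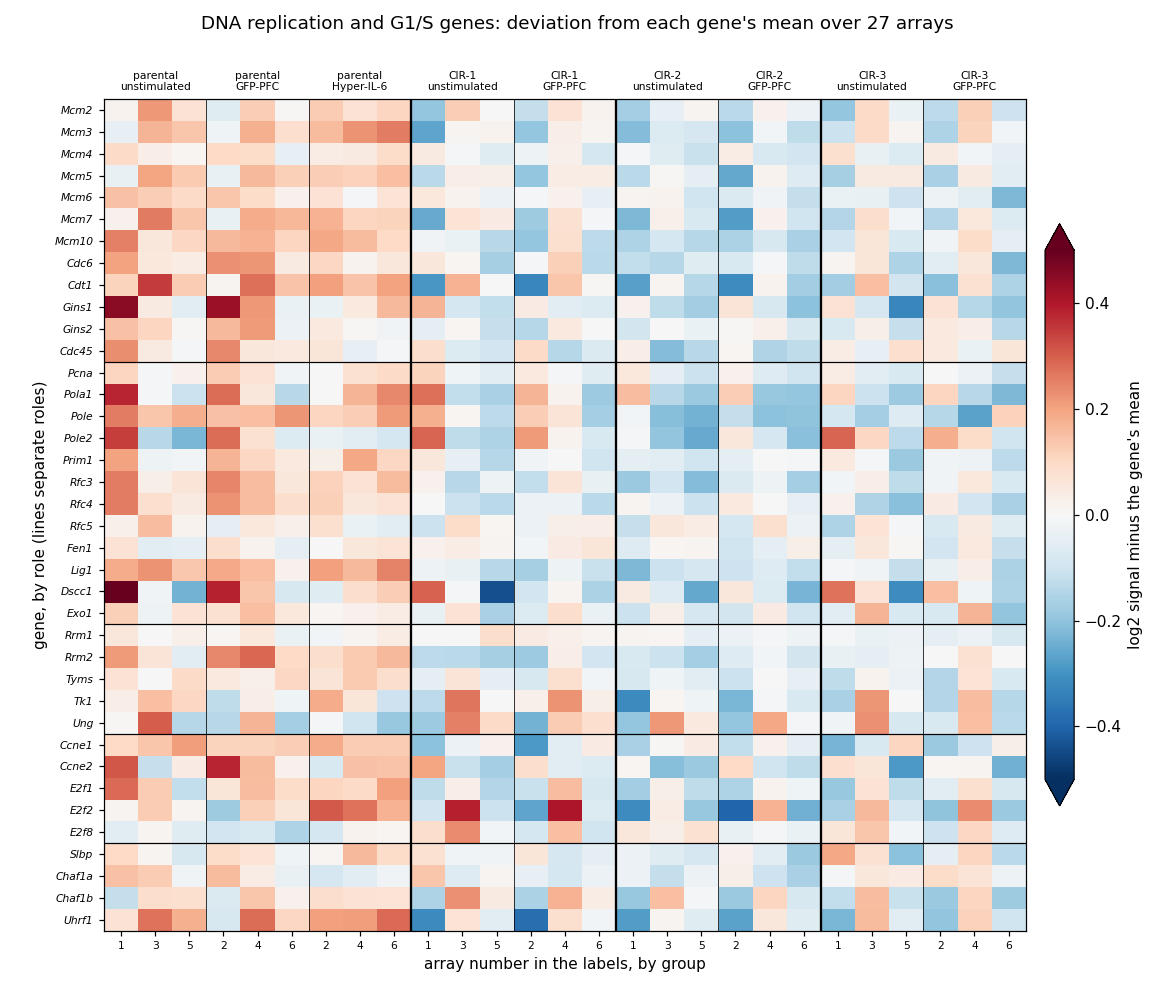
Deviation of each of the 38 genes (rows, grouped by role: licensing and helicase, fork enzymes, nucleotide supply and uracil removal, G1/S control, chromatin) from its own mean over 27 arrays, in log2 units. Columns are arrays by group with their label numbers, and colours saturate beyond 0.5 either way. The parental arrays on the left are mostly red (median deviation 0.024 to 0.138, beside -0.03 to 0.034 for all genes). Within the lines the first number of each group differs from the later ones for genes such as Pola1, Uhrf1 and Cdt1.

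The lines were compared next, each CIR line against parental cells over both conditions, 6 arrays against 6, the comparison that the stated aim implies. Some of the 38 genes were called lower in each CIR line, by at most 1.27-fold, and no member was called higher. In CIR-1, 6 members were called lower (limma, adjusted p under 0.05 over all genes) and 0 higher, where 1.96% of all genes were called lower. In CIR-2, 8 members were called lower, where 1.38% of all genes were, and in CIR-3 it was 4 members, where 1.10% of all genes were. A moderated F-test of any difference among the 4 lines called 7 members (Lig1, Mcm10, Mcm6, Pole, Rfc3, Rfc4 and Rrm2), against 7.42% of all genes. Without the arrays numbered 1 and 2 the F-test calls of Mcm6 and Rfc3 ended, and that of Mcm6 also ended without parental 2 or parental 4. The median difference of the 38 members was -0.12 for CIR-1, -0.16 for CIR-2 and -0.13 for CIR-3, while the medians of all genes were 0.0007, -0.0032 and -0.023. Below 0 were 31, 36 and 35 of the 38 members, beside 49.6%, 52% and 59.7% of all genes. Markers of several blood cell types also differed between the lines and parental cells. In either direction, 979, 757 and 837 of all 19920 genes were called in CIR-1, CIR-2 and CIR-3. Of 10 mast cell and basophil markers, it was 3, 3 and 4. Fcer1a, the high-affinity IgE receptor chain, was at -4.16, -4.16 and -4.29, and Hdc at -0.77 and -0.86 in the first 2 lines. Gata2 was higher in all 3, by 0.23, 0.26 and 0.30. In CIR-3 Ms4a2 was higher, at 0.59, and Cma1 lower, at -0.22. Of 10 myeloid markers, 3, 1 and 2 were called, with Mpo, myeloperoxidase, at -1.55, -1.54 and 0.98 and Lyz2 at -0.91 in CIR-3. Of 7 erythroid markers, Gata1, Klf1, Epor and Itga2b were higher in CIR-1 and in CIR-2 and Epor in CIR-3, and of 15 pro-B markers, 1, 1 and 3 were called, all higher, with Cd79b in each line. Of 6 T cell markers 0 were called, and of 5 receptor genes for IL-3 and gp130 signalling Csf2rb2 was lower in CIR-2. The part of these differences in those of the replication genes was not tested. The 3 comparisons use the same 6 parental arrays, so a high or low parental array moves all of them together.

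The array numbers were then taken into the fit. With the number as a replicate block, 14 members were called lower for CIR-1 (3.47% of all genes), 16 for CIR-2 (2.90%) and 15 for CIR-3 (2.42%), and every member called without the block was called with it. The Hyper-IL-6 arrays were in these blocks by their numbers, and counts without them are given further below. With the block, 11 members were called lower in all 3 lines, namely Ccne1, Cdc6, Cdt1, Lig1, Mcm10, Mcm5, Mcm7, Rfc3, Rfc4, Rrm2 and Uhrf1, and 21 in no line. The share of all genes called lower in all 3 lines is not given here, and the lines share the parental arrays. Without the arrays numbered 1 and 2, and without the block, 3, 10 and 8 members were called lower, where 2.17%, 1.75% and 11.5% of all genes were. Fitted to the compared arrays alone, 2, 7 and 1 were called lower, beside 1.13%, 1.06% and 0.502% of all genes. The calls that ended there were Ccne1, Mcm10, Rfc3 and Rfc4 in CIR-1 (adjusted p = 0.113, 0.0918, 0.222 and 0.0595), Mcm6 in CIR-2 (0.112), and Lig1, Mcm6 and Rfc4 in CIR-3 (0.0777, 0.0915 and 0.0778). Without numbers 1 and 2 the calls of Ccne1, Mcm10 and Rfc3 in CIR-1 (0.0845, 0.0992 and 0.293) and of Cdc6 and Mcm6 in CIR-2 (0.24 and 0.131) ended. At exon level those of Ccne1 and Rfc3 in CIR-1 ended (0.105 and 0.0778), and that of Cdt1 in CIR-2 ended with quantile normalization (0.0558) and with every probe set on its own (0.0536). With arrays left out singly, the CIR-2 count fell to 5 without parental 4 or without CIR-2 6. When same-numbered arrays were set against each other, 19 members were lower than parental in all 6 pairs for CIR-1, 30 for CIR-2 and 19 for CIR-3. In single pairs between 43.9% and 56.8% of all genes were lower, and the share lower in all 6 pairs was not counted.

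**Figure D2:**
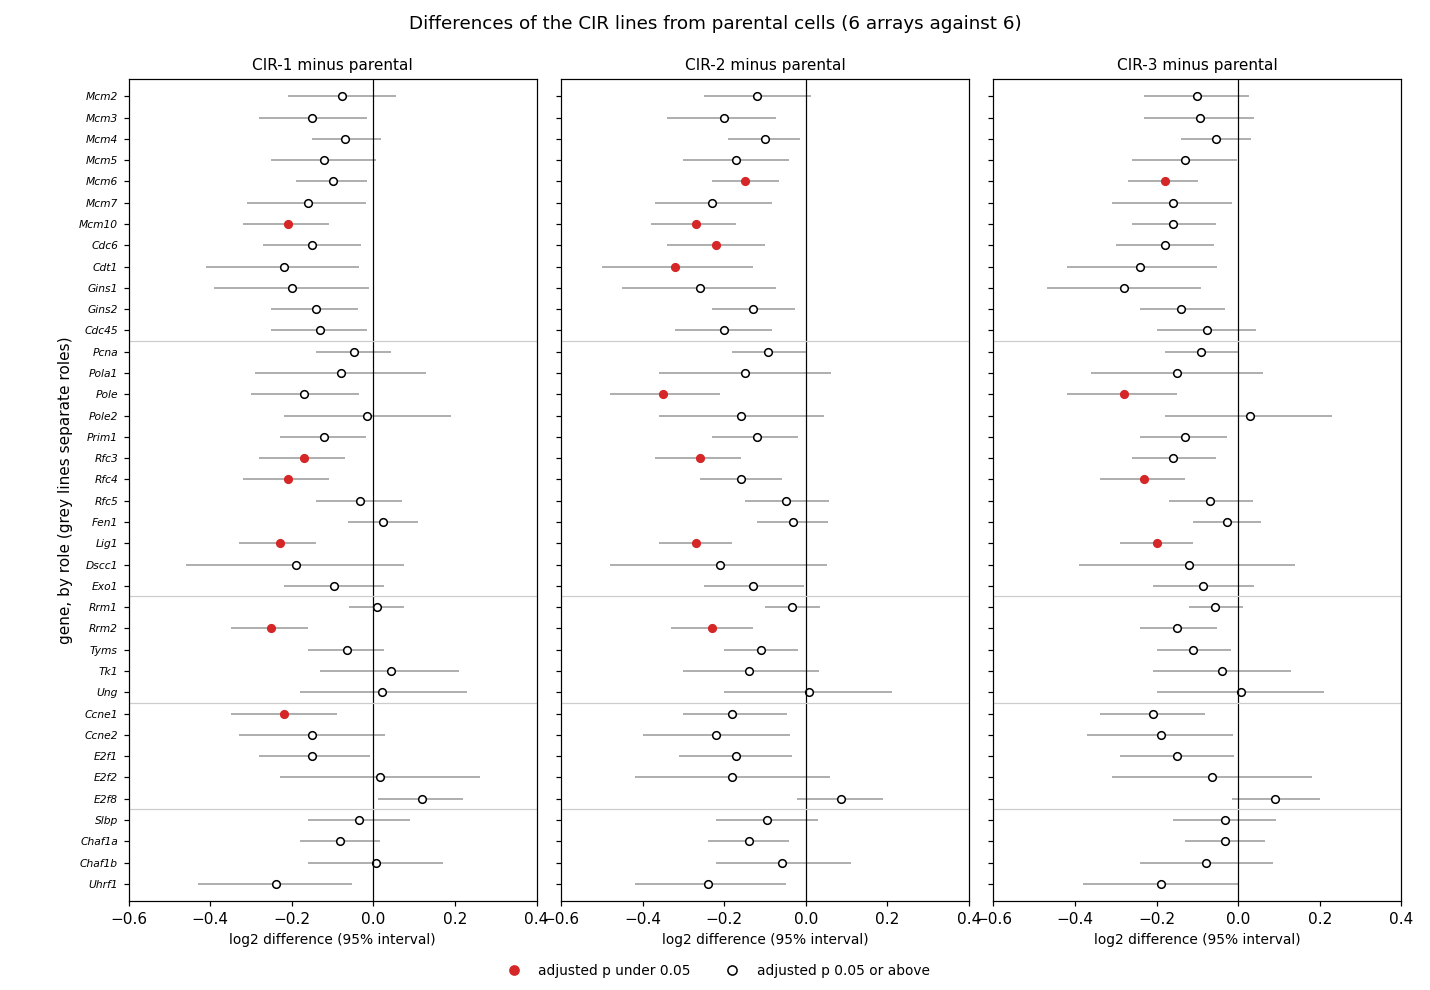
Difference of each CIR line from parental cells for the 38 genes, on the log2 scale with 95% intervals, from 6 arrays against 6. Filled red points have an adjusted p under 0.05 over all genes. Most points lie left of 0 (31, 36 and 35 of 38, beside 49.6%, 52% and 59.7% of all genes). The red ones number 6, 8 and 4, and E2f8 lies right of 0 in each panel.

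Of the 12 licensing and helicase genes, 1 was called lower for CIR-1, 4 for CIR-2 and 1 for CIR-3. The differences of all 12 were below 0 in each line, passing or not, with medians of -0.15 for CIR-1, -0.20 for CIR-2 and -0.15 for CIR-3. Mcm10, which encodes a factor needed to activate the loaded helicase, had a lowest, median and highest log2 signal of 11.795, 11.876 and 11.99 in the 6 parental arrays. In CIR-1 the same values were 11.545, 11.658 and 11.821, in CIR-2 they were 11.576, 11.592 and 11.658, and in CIR-3 they were 11.646, 11.708 and 11.831. CIR-2 did not overlap parental cells, whereas the highest arrays of CIR-1 and CIR-3 reached into the parental range. Mcm10 was lower by 0.21 in CIR-1 (SE 0.0492, adjusted p = 0.00784) and by 0.27 in CIR-2 (adjusted p = 0.000992), and its difference in CIR-3 was -0.16 (adjusted p = 0.0781).

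Mcm6, a subunit of the MCM2-7 ring, ranged from 12.646 to 12.768 in parental cells, from 12.583 to 12.675 in CIR-1, from 12.502 to 12.64 in CIR-2 and from 12.4 to 12.596 in CIR-3. CIR-2 and CIR-3 lay wholly below parental cells and CIR-1 overlapped them. Mcm6 was lower by 0.18 in CIR-3 (SE 0.0408, adjusted p = 0.00805) and by 0.15 in CIR-2 (adjusted p = 0.0385), and its difference in CIR-1 was -0.10 (adjusted p = 0.229). The CIR-2 call ended when any of 9 arrays was left out, parental 1 to 5 and CIR-2 2, 3, 5 or 6, with adjusted p between 0.0525 and 0.13. The other ring subunits did not pass in any line, with differences in CIR-2 of -0.12 for Mcm2, -0.20 for Mcm3, -0.10 for Mcm4, -0.17 for Mcm5 and -0.23 for Mcm7. With the block, Mcm5 and Mcm7 were called lower in each line, Mcm7 with adjusted p of 0.0129, 0.000845 and 0.016 in CIR-1, CIR-2 and CIR-3.

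The loaders of the ring passed in CIR-2 alone among the unblocked fits. Cdt1 had a lowest, median and highest signal of 11.721, 11.843 and 12.057 in parental cells and of 11.392, 11.551 and 11.726 in CIR-2. The highest CIR-2 array overlapped the lowest parental array. Cdt1 was lower by 0.32 in CIR-2 (SE 0.0898, adjusted p = 0.0496), and its differences in CIR-1 and CIR-3 were -0.22 (adjusted p = 0.232) and -0.24 (adjusted p = 0.165). That call ended without any of 8 arrays, parental 3 to 6 and CIR-2 1, 2, 5 or 6 (adjusted p 0.064 to 0.145), and with the block it held in each line (adjusted p = 0.00641, 0.000245 and 0.00406). Cdc6 ranged from 10.662 to 10.853 in parental cells and from 10.481 to 10.616 in CIR-2, with no overlap, and was lower by 0.22 there (adjusted p = 0.0311). Leaving out any of 7 arrays, parental 1, 2 or 4 and CIR-2 1, 2, 3 or 6, moved its adjusted p to between 0.0622 and 0.0906, and in the exon-level values its CIR-2 difference was -0.10 (adjusted p = 0.658). The differences of Gins1 and Cdc45, which complete the active helicase, were -0.26 (adjusted p = 0.143) and -0.20 (adjusted p = 0.0511) in CIR-2.

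Among the fork enzymes, Lig1, which encodes the ligase that joins Okazaki fragments, was the one member called in all 3 lines. Its log2 signals in unstimulated parental cells were 11.312, 11.351 and 11.261 for numbers 1, 3 and 5, and with GFP-PFC they were 11.317, 11.28 and 11.148 for numbers 2, 4 and 6. Parental cells with Hyper-IL-6 gave 11.332, 11.29 and 11.377. Unstimulated CIR-1 cells gave 11.101, 11.09 and 10.988, and CIR-1 cells with GFP-PFC gave 10.963, 11.104 and 11.017. These 6 arrays all lay below the lowest parental array. In CIR-2 the values were 10.905, 11.019 and 11.043 unstimulated and 11.026, 11.062 and 11.004 with GFP-PFC. They, too, lay below every parental array. In CIR-3 they were 11.12, 11.112 and 11.009 unstimulated and 11.089, 11.16 and 10.971 with GFP-PFC, so that 1 array, at 11.16, passed the lowest parental array. Lig1 was lower by 0.23 in CIR-1 (1.18-fold, SE 0.0446, adjusted p = 0.00142), by 0.27 in CIR-2 (1.20-fold, adjusted p = 0.000412) and by 0.20 in CIR-3 (1.15-fold, adjusted p = 0.00729). No single left-out array ended these calls, and all 6 same-numbered pairs were below 0 in each line.

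Pole, the catalytic subunit of DNA polymerase epsilon, had the largest difference of any member. It ranged from 11.31 to 11.428 in parental cells, with a median of 11.338. In CIR-1 the range was 11.004 to 11.352, in CIR-2 10.938 to 11.159 and in CIR-3 10.905 to 11.288. CIR-2 and CIR-3 lay wholly below parental cells, and CIR-1 overlapped them. Pole was lower by 0.35 in CIR-2 (1.27-fold, SE 0.0644, adjusted p = 0.00144) and by 0.28 in CIR-3 (1.22-fold, adjusted p = 0.00882), and its difference in CIR-1 was -0.17 (adjusted p = 0.187). Pole2, its accessory subunit, had differences of -0.0164, -0.16 and 0.0288 in CIR-1, CIR-2 and CIR-3, none of which passed.

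The clamp loader genes Rfc3 and Rfc4 place PCNA on DNA. Rfc4 ranged from 12.529 to 12.74 in parental cells, from 12.35 to 12.481 in CIR-1, from 12.378 to 12.532 in CIR-2 and from 12.276 to 12.527 in CIR-3. CIR-1 and CIR-3 did not overlap parental cells. Rfc4 was lower by 0.21 in CIR-1 (SE 0.05, adjusted p = 0.00923) and by 0.23 in CIR-3 (adjusted p = 0.00531), with a difference of -0.16 in CIR-2 (adjusted p = 0.0827). Rfc3 was lower by 0.26 in CIR-2 (adjusted p = 0.00216) and by 0.17 in CIR-1 (adjusted p = 0.0475), with -0.16 in CIR-3 (adjusted p = 0.0849). Its CIR-1 call ended without any of 8 arrays, parental 1, 2, 4 or 5 and CIR-1 2, 3, 5 or 6 (adjusted p 0.053 to 0.142). Rfc5, of the same complex, had differences of -0.0329, -0.0481 and -0.0683, and Pcna of -0.048, -0.092 and -0.092, and neither passed in any line. The primase and polymerase alpha genes Prim1 and Pola1 did not pass either, at -0.12 and -0.15 in CIR-2, nor did Fen1, which trims fragment ends, at -0.031.

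**Figure D3:**
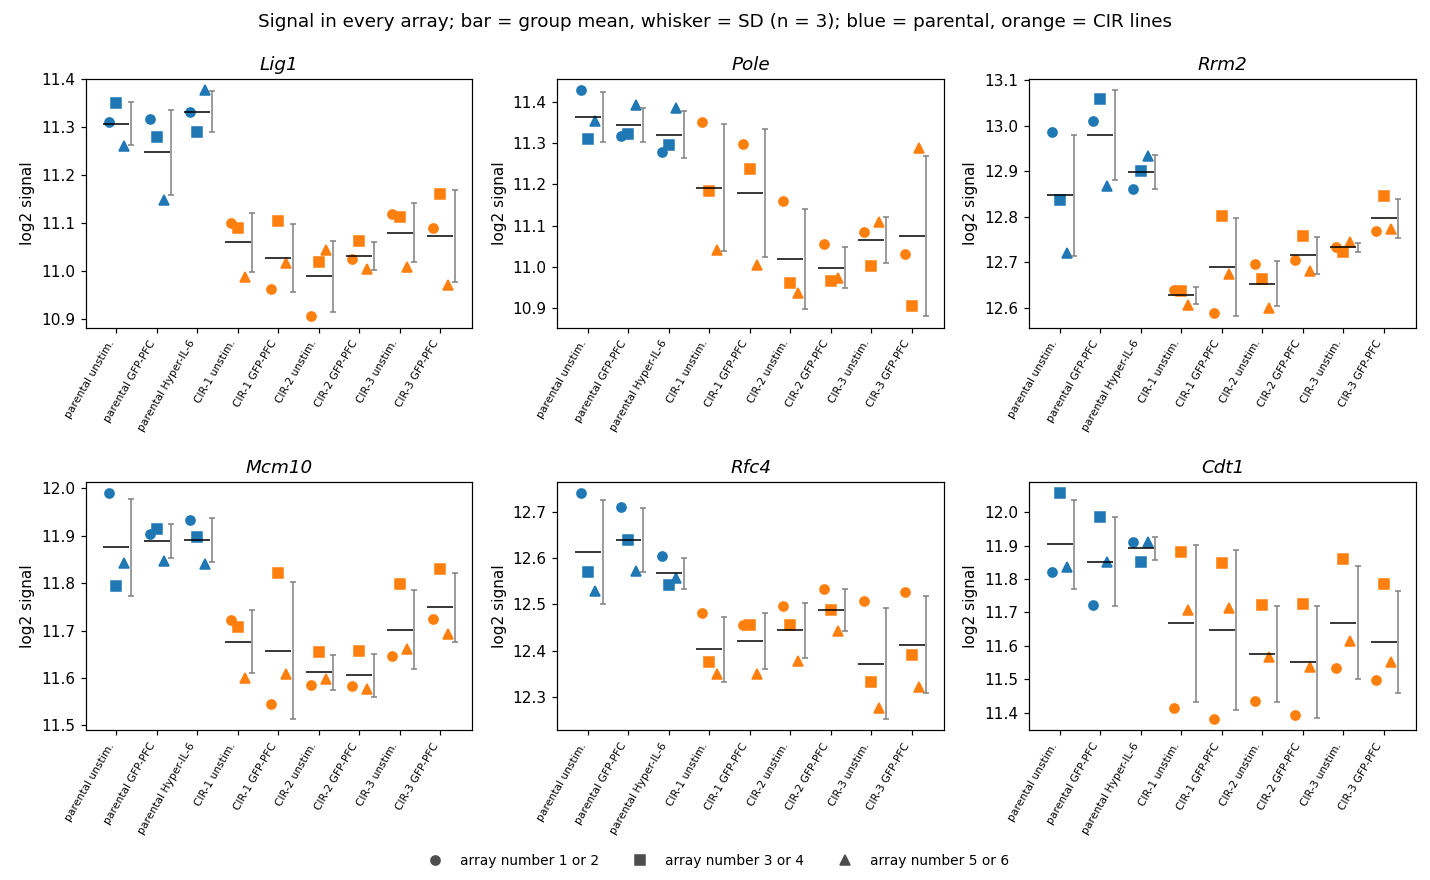
Log2 signal of Lig1, Pole, Rrm2, Mcm10, Rfc4 and Cdt1 in each of the 27 arrays, by group. Symbols mark the array numbers, black bars are group means and grey whiskers the SD of 3 arrays. For Lig1 the blue parental arrays (11.148 to 11.377) lie above the CIR-1 and CIR-2 arrays, whose highest value is 11.104, while Cdt1 separates by array number within each CIR group as well.

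Of the genes for nucleotide supply and uracil removal, Rrm2 passed and the others did not. Rrm2 encodes the small, S-phase-limited subunit of ribonucleotide reductase, which makes the deoxynucleotides for replication. Its lowest, median and highest signals were 12.72, 12.927 and 13.059 in parental cells, 12.589, 12.639 and 12.803 in CIR-1, 12.6, 12.688 and 12.759 in CIR-2, and 12.723, 12.757 and 12.847 in CIR-3. The lowest parental array was below the highest array of each line, and the parental median was above every CIR array. Rrm2 was lower by 0.25 in CIR-1 (1.19-fold, SE 0.0467, adjusted p = 0.000956) and by 0.23 in CIR-2 (1.17-fold, adjusted p = 0.00364), and its difference in CIR-3 was -0.15 (adjusted p = 0.0798). The large subunit gene Rrm1 had differences of 0.00822, -0.0336 and -0.0563 in the 3 lines. Thymidylate synthase, Tyms, was at -0.0652, -0.11 and -0.11, and the uracil glycosylase gene Ung at 0.0201, 0.00679 and 0.00742.

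The G1/S control genes were mixed. Ccne1, which encodes cyclin E1, ranged from 11.936 to 12.048 in parental cells, from 11.551 to 11.878 in CIR-1, from 11.675 to 11.878 in CIR-2 and from 11.605 to 11.946 in CIR-3. CIR-1 and CIR-2 lay below parental cells without overlap. Ccne1 was lower by 0.22 in CIR-1 (SE 0.0623, adjusted p = 0.0425), with differences of -0.18 in CIR-2 (adjusted p = 0.154) and -0.21 in CIR-3 (adjusted p = 0.0583). The CIR-1 call ended without any of 9 arrays, parental 2 to 6 and CIR-1 1 to 4 (adjusted p 0.0568 to 0.144), and with the block Ccne1 was called in each line (adjusted p = 0.00278, 0.0193 and 0.00472). The activator E2f1 had differences of -0.15, -0.17 and -0.15, and E2f8, a repressor of the E2F family, was above 0 in each line at 0.12, 0.0853 and 0.0909, all without passing. Among the chromatin genes, Uhrf1, a cofactor of maintenance DNA methylation, had differences of -0.24, -0.24 and -0.19 that passed with the block (adjusted p = 0.00122, 0.00168 and 0.0115) and not without it (0.177, 0.211 and 0.301). The histone chaperone genes Chaf1a and Chaf1b and the histone mRNA binder Slbp passed in neither fit.

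The line differences were read in each condition alone, 3 arrays against 3. Unstimulated, Lig1 was called lower in CIR-1, where 0.587% of all genes were, and in CIR-2 (0.321%), and no member was called in CIR-3 (0.296%), where 7 had an unadjusted p under 0.05 by limma. With GFP-PFC, Rrm2 was called in CIR-1 (0.502% of all genes), Mcm10 and Rrm2 in CIR-2 (0.311%) and no member in CIR-3 (0.281%), where 11 had an unadjusted p under 0.05. With the block the unstimulated counts were 4, 8 and 3, where 1.32%, 0.783% and 0.723% of all genes were called lower, and those with GFP-PFC were 4, 8 and 2, where 1.13%, 0.723% and 0.547% were. Medians of the members in unstimulated cells and with GFP-PFC were -0.11 and -0.12 in CIR-1, -0.17 and -0.15 in CIR-2, and -0.11 and -0.13 in CIR-3. Leaving out 1 array changed most of these counts. Unstimulated, the CIR-1 count was 0 without parental 1 or 3 or any CIR-1 array, the CIR-2 count was 2 without parental 3, and the CIR-3 count was 1 without parental 1 or CIR-3 1. With GFP-PFC, the CIR-1 count was 0 without parental 2 or 4 or CIR-1 2 or 6, and 2 without parental 6 or CIR-1 4. The CIR-2 count with GFP-PFC was 0 without parental 2 or 4 or any CIR-2 array and 1 without parental 6, and the CIR-3 count was 1 without CIR-3 6.

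The CIR lines were also set against each other. No member was called between CIR-2 and CIR-1 (1.45% of all genes called in either direction), between CIR-3 and CIR-1 (2.80%) or between CIR-3 and CIR-2 (2.33%) by limma, with 2, 1 and 3 members at an unadjusted p under 0.05. The member medians were -0.048, -0.012 and 0.039. Pole differed by -0.18 between CIR-2 and CIR-1 (95% interval -0.31 to -0.0438, adjusted p = 0.32), Rrm2 by 0.11 between CIR-3 and CIR-1 (0.0101 to 0.2, adjusted p = 0.316) and Mcm10 by 0.12 between CIR-3 and CIR-2 (0.015 to 0.22, adjusted p = 0.279). With the block, Pole2 was called higher in CIR-3 than in CIR-2, by 0.19 (adjusted p = 0.0352).

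The exon-level table splits each gene into several probe sets and was read as another view of the same RNA. Of the 525 exon-level probe sets of the 38 members, 436 were below 0 for CIR-1, 484 for CIR-2 and 450 for CIR-3. The share of all exon-level probe sets below 0 was not counted, and probe sets of the same gene are not independent of each other. For Pole it was 45, 50 and 47 of 51, for Lig1 26, 27 and 27 of 28, and for Mcm10 20, 21 and 19 of 21. All 9 probe sets of Rrm2, all 10 of Rfc4 and all 17 of Mcm6 were below 0 in each line.

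Other replication genes, listed with earlier results of these data known, gave further calls. Of 37 such genes, 4 were lower and 1 higher in CIR-1, 5 lower in CIR-2, and 2 lower and 1 higher in CIR-3. Of all 19920 genes, 391, 274 and 219 were called lower in CIR-1, CIR-2 and CIR-3, and 588, 483 and 618 higher. Pold1 and Pold2, subunits of the lagging-strand polymerase delta, were lower in all 3 lines, Pold1 by 0.20, 0.23 and 0.27 (adjusted p = 0.0132, 0.00648 and 0.000862) and Pold2 by 0.18, 0.18 and 0.21. Dnmt1, the maintenance DNA methyltransferase, was lower by 0.24 in CIR-2 (adjusted p = 0.000635), and Orc5, of the origin recognition complex, was higher by 0.33 in CIR-1 and by 0.30 in CIR-3 (adjusted p = 0.00475 and 0.0134). Of 18 checkpoint and repair genes, 2 were lower and 1 higher in each of CIR-1 and CIR-2, and CIR-3 had 1 lower. Chek1, the S-phase checkpoint kinase, was lower in all 3 lines, by 0.25, 0.26 and 0.18 (adjusted p = 0.0023, 0.00178 and 0.036), while Chek2, another checkpoint kinase, was higher by 0.37 in CIR-1 (adjusted p = 0.0016) and Gadd45a, a DNA damage response gene, by 0.27 in CIR-2 (adjusted p = 0.0477). Of 27 other G1/S regulators, 2 were higher and 1 lower in CIR-1, 2 higher and 1 lower in CIR-2 and 3 higher in CIR-3. Lower were Cdc25a, a phosphatase that activates cyclin-dependent kinases, in CIR-1 (-0.27, adjusted p = 0.0102) and the E2F repressor E2f7 in CIR-2 (-0.19, adjusted p = 0.00983). Ccnd3, a D-type cyclin, was higher in all 3 lines, by 0.41, 0.46 and 0.40 (adjusted p = 0.0349, 0.0216 and 0.0465), and Ccnd2 was higher by 0.23 in CIR-2 and by 0.26 in CIR-3 (adjusted p = 0.0142 and 0.00404). Cdkn1b, an inhibitor of cyclin-dependent kinases, did not pass, with differences of -0.05, -0.09 and -0.02. Another inhibitor gene, Cdkn2c, was higher by 0.28 in CIR-1 (adjusted p = 0.0429), with 0.10 and 0.24 in CIR-2 and CIR-3 (adjusted p = 0.782 and 0.107). Cdkn2d, also an inhibitor gene, had differences of 0.30, 0.37 and 0.35 that did not pass (adjusted p = 0.172, 0.0803 and 0.0849). Of 29 mitotic genes, 0 were called in CIR-1 and CIR-2, with 3 and 1 at an unadjusted p under 0.05 by limma, and 1 in CIR-3, Ect2, which was higher by 0.14 (adjusted p = 0.0489). The median differences of the mitotic genes were 0.037, -0.0037 and 0.031, beside -0.12, -0.16 and -0.13 for the 38 members. Shares of cells in S phase were not measured, and in bulk RNA fewer cells in a phase and less RNA per cell cannot be told apart.

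The response to the emulsion was the next comparison, 12 arrays with GFP-PFC against 12 without over the 4 lines. No member was called after 1 h of GFP-PFC by limma, where 0.221% of all genes were, and 2 members had an unadjusted p under 0.05. These were E2f8, whose difference was -0.0891 (95% interval -0.16 to -0.0142, adjusted p = 0.641), and Rrm2 at 0.0797 (0.0113 to 0.15, adjusted p = 0.662). In pairs of consecutive numbers within a line, E2f8 was lower with GFP-PFC in 12 of 12 pairs, Ung in 12 of 12 (difference -0.0642), and Rrm2 was higher in 11 of 12, and with the number as a block their adjusted p was 0.231, 0.755 and 0.366. They were the most one-sided of the 38 members. The share of all genes as one-sided is not given here, and 59.8% of all genes had a difference below 0. The next by p were Mcm6 at -0.0367 (adjusted p = 0.971) and Rfc3 at 0.0374 (adjusted p = 0.987). The median of the members was -0.011, equal to that of all genes. Intervals of the 38 members lay between -0.21, the lower bound of Ung, and 0.19, the upper bound of Pole2 and Dscc1. In each line alone 0% of all genes and 0 members were called, and 0 members had an unadjusted p under 0.05. A test of whether the difference varied among the 4 lines also called 0% of genes, with 187 genes and 0 members at an unadjusted p under 0.05. Myc, which encodes a transcription factor that promotes entry into the cell cycle, was higher by 0.58 with GFP-PFC (adjusted p = 0.0111) and was the 1 call among 27 G1/S regulators. No group is labelled as given the liquid without its cargo or a mock addition, so the cargo, the liquid and the act of adding them cannot be told apart.

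Hyper-IL-6, the factor these cells need to grow, was compared with no stimulation in parental cells, 3 arrays against 3. No member was called by limma, where 0.773% of all genes were, and 0 members had an unadjusted p under 0.05. The 4 members with the smallest p were Chaf1a at -0.14 (95% interval -0.27 to 0.00239, adjusted p = 0.765), Mcm3 at 0.12 (adjusted p = 0.954), Mcm6 at -0.0765 (adjusted p = 0.954) and E2f2 at 0.20 (-0.14 to 0.54, adjusted p = 0.968). Of the members, 18 lay above 0 and 20 below. Against GFP-PFC in parental cells the count was again 0, with 0.507% of all genes called, 0 members at an unadjusted p under 0.05, and E2f2 at 0.25 (adjusted p = 1). The G1/S regulators nonetheless held strong calls in the same arrays. Cdkn2d, which encodes an INK4-type inhibitor of CDK4 and CDK6, was higher by 2.07 with Hyper-IL-6 (SE 0.16, adjusted p = 1.97e-08), and Myc by 0.95 (adjusted p = 0.0256). Intervals of single members reached from -0.45 for Ung to 0.54 for E2f2.

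**Figure D4:**
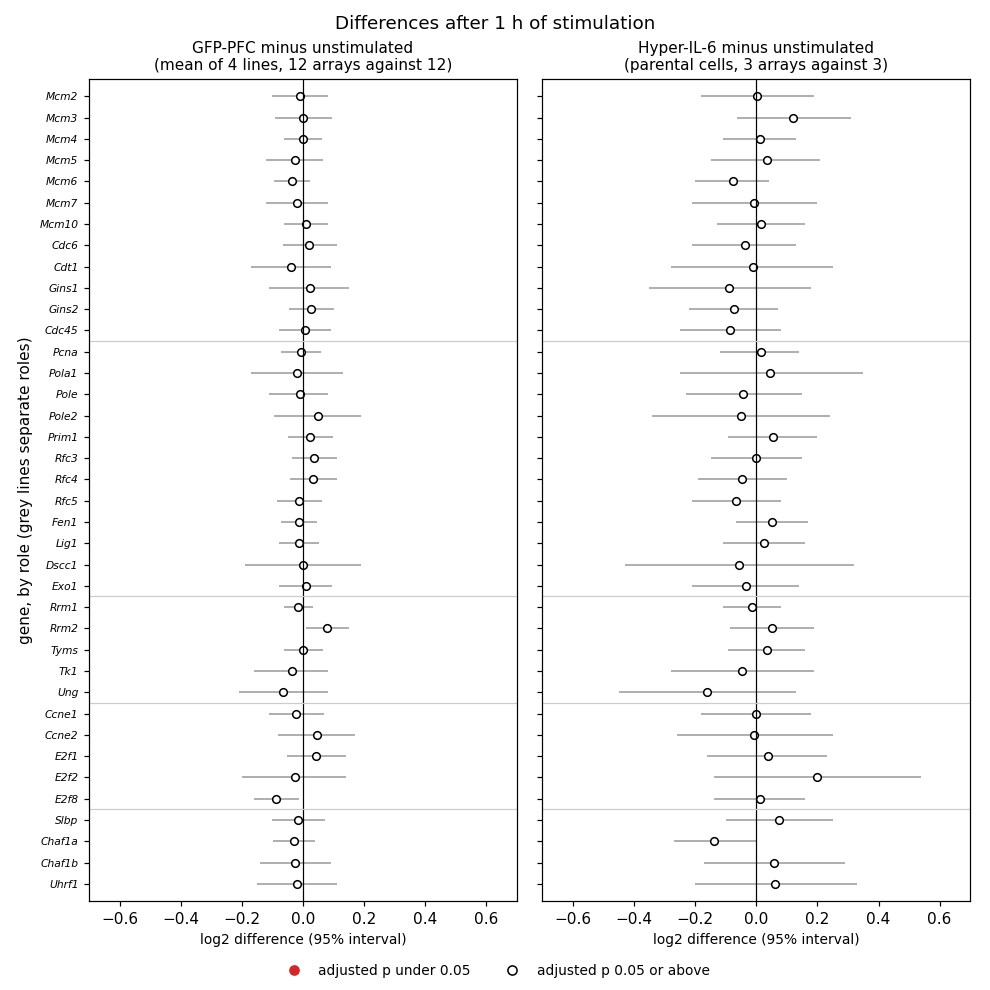
Difference after 1 h of GFP-PFC (left, mean of 4 lines, 12 arrays against 12) and of Hyper-IL-6 (right, parental cells, 3 arrays against 3) from unstimulated cells, log2 scale with 95% intervals. All points are open, since no member had an adjusted p under 0.05, and the left intervals stay between -0.21 and 0.19.

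Many members differed by array number. In the 24 arrays without Hyper-IL-6, 25 members differed between numbers 1 and 2 and the later numbers, 12 higher (16.9% of all genes) and 13 lower (24.9%), together beside 41.9% of all genes. Members of the same complexes moved in opposite directions. Higher in numbers 1 and 2 were Pola1 by 0.32 (SE 0.0272, adjusted p = 1.97e-08), Dscc1, of the cohesion-linked clamp loader, by 0.32 (adjusted p = 8.92e-05), Pole2 by 0.30, Gins1 by 0.26 and Ccne2 by 0.23. Lower were Uhrf1 by 0.27 (SE 0.0268, adjusted p = 1.66e-07), E2f2 by 0.25 (adjusted p = 0.000113), Cdt1 by 0.24 and Chaf1b, Ung and Mcm7 by 0.21 each. Of the helicase ring, Mcm2, Mcm3, Mcm5 and Mcm7 were lower while Mcm4 was higher by 0.08 (adjusted p = 0.00569), and Mcm6 had a difference of 0.0474 (adjusted p = 0.089). Cyclin E1 and E2 likewise parted, with Ccne1 lower by 0.16 and Ccne2 higher. The median over the members was 0.0034.

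Pola1 shows the size of this difference. Its lowest, median and highest signals were 11.341, 11.397 and 11.616 in the 8 arrays numbered 1 or 2, 11.044, 11.119 and 11.29 in those numbered 3 or 4, and 11.012, 11.053 and 11.126 in those numbered 5 or 6. The arrays numbered 1 and 2 lay above all others of these 24. Uhrf1 went the other way, at 11.578, 11.708 and 12.026 in numbers 1 and 2, 11.968, 12.054 and 12.233 in numbers 3 and 4, and 11.855, 11.901 and 12.132 in numbers 5 and 6, with some overlap between the sets. Of the members, 20 had the same sign in all 8 groups, 8 higher and 12 lower, and 14 of these 20 had the opposite sign among the 3 Hyper-IL-6 arrays, whose number 2 array gave 11.234 for Pola1 beside 11.403 and 11.475 for numbers 4 and 6. The share of all genes with the same sign in all 8 groups was not counted. The median genomic length was 14603.5 bases for the 12 members higher in numbers 1 and 2 and 15307 for the 13 lower, beside 30338 and 16356 over all genes called in those directions.

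**Figure D5:**
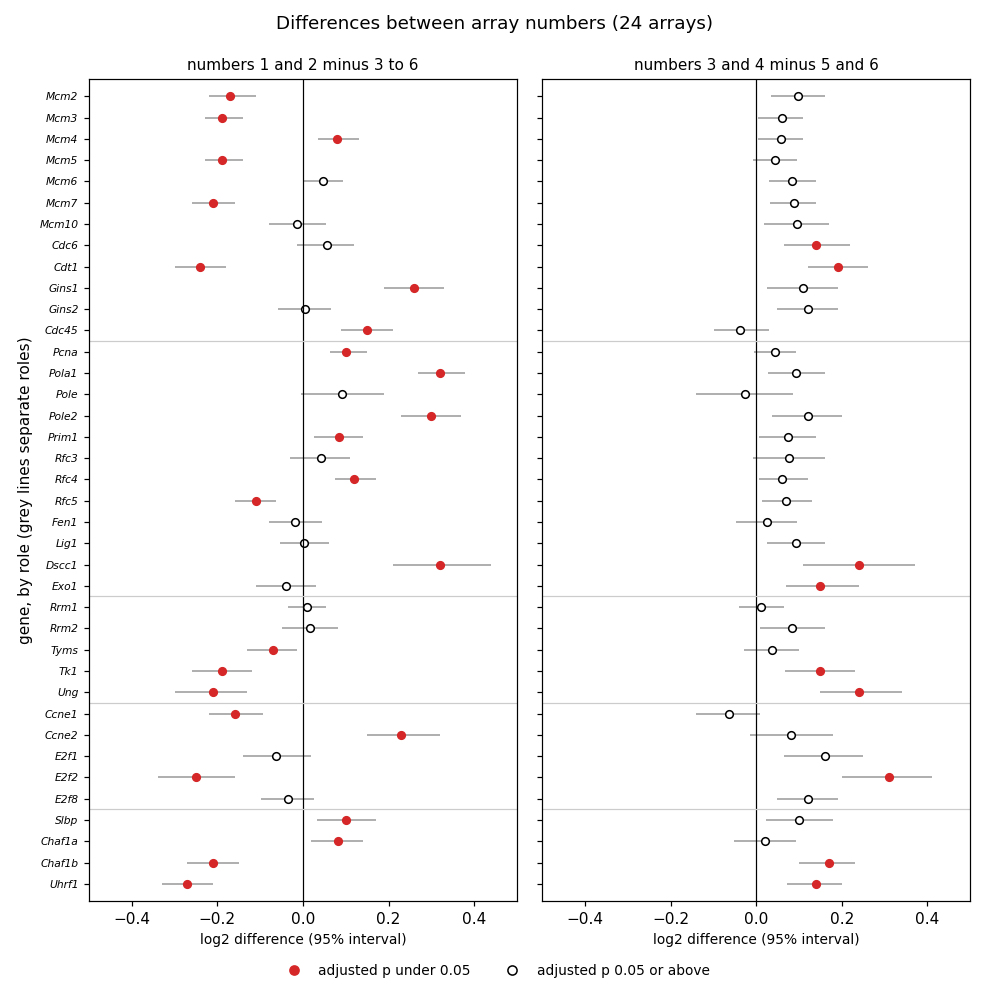
Difference between array numbers for the 38 genes, log2 scale with 95% intervals, from the 24 arrays without Hyper-IL-6. On the left numbers 1 and 2 against the later ones, with 25 red points on both sides of 0, and on the right numbers 3 and 4 against 5 and 6, with 9 red points, all right of 0.

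Between the later numbers most members lay on one side. In numbers 3 and 4 against 5 and 6, 9 members were called higher, where 1.47% of all genes were, and 0 lower by limma, with 27 members at an unadjusted p under 0.05. E2f2, an activating E2F factor, had a lowest, median and highest signal of 9.711, 9.843 and 10.078 in numbers 3 and 4 and of 9.435, 9.578 and 9.736 in numbers 5 and 6, which overlapped slightly. It was higher by 0.31 (SE 0.0503, adjusted p = 0.00268), Ung by 0.24 (adjusted p = 0.00729), Cdt1 by 0.19 (adjusted p = 0.00512) and Chaf1b by 0.17 (adjusted p = 0.00666). The other calls were Dscc1 at 0.24, Tk1 and Exo1 at 0.15, and Cdc6 and Uhrf1 at 0.14. Of the members, 35 lay above 0, with a median of 0.09 beside 0.0009 over all genes, 16 were higher in all 8 groups and 29 in 7 or more. The shares of all genes higher in that many groups were not counted. At exon level 436 of 525 probe sets were above 0, and the share of all exon-level probe sets was not counted. In the Hyper-IL-6 group 13 of 38 members were higher in number 4 than in number 6, with a median of -0.023. With all 27 arrays in the fit, 2 members were called. The count fell to 4 without CIR-3 3, 5 or 6 and to 5 without parental 6, CIR-1 3 or 4, CIR-2 2 or 4 or CIR-3 4, and E2f2 and Ung were called in all 31 alternatives run. The labels do not say what the numbers stand for, and their part in any other result was not tested beyond the fits given.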

How the data were processed

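Total RNA was measured on Affymetrix mouse arrays, 3 in each of 9 groups. The authors deposited log2 signal values per probe set, summarised at gene and at exon level (core sets) in Affymetrix Expression Console, per the submitters' processing notes and the labels. The program version, algorithm and normalization are not given in the sources used here, and the log base was read from the range of the values (2.97 to 14.9), so folds rest on it. The deposited normalization was kept.

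Of 35556 gene-level probe sets, 21789 carried 1 symbol, 1621 several and 12146 none, and 1015 genes had several. Symbols were updated for 23 probe sets through Entrez numbers, of which 21698 matched. At exon level the values covered 241576 probe sets and served as an alternative.

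Differences were fitted in R 4.3.3 with limma 3.58.1, 1 mean per group over 27 arrays, two-sided, with Benjamini-Hochberg adjustment over 19920 genes and a threshold of 0.05. Array numbers were fitted on 24 arrays as a factor of 3 levels added to 8 group means. The fit was tested on simulated data. Dim probe sets were kept, and the number of arrays limits the precision.

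Deviations from group means correlated above 0 in all 12 pairs of consecutive numbers within a line (r across genes 0.283 to 0.633) and in all 36 same-numbered pairs of different lines (0.136 to 0.763), and consecutive numbers of different lines gave 0.044 to 0.664, so the numbers were taken to pair the arrays. Pairs with a Hyper-IL-6 array gave -0.463 to 0.06 and were not set against each other as pairs. The fit with the block nonetheless kept the Hyper-IL-6 arrays in the blocks of their numbers, a pairing that these values do not show. Counts with the block and no Hyper-IL-6 arrays are given below. The members, lists and tests were chosen with earlier results of these data known. Every member that passed could be named, first the 8 with the largest absolute difference, with up to 10 neighbours in role that did not pass, or the 4 with the smallest p where none passed. From each other list up to 4 passing genes per comparison could be named, smallest p first, as could Myc, Ccnd2, Cdkn1a (not analysed here) and Cdkn1b, and any cell type marker. The line differences of Cdkn2c and Cdkn2d were added with the results known. Promoter windows came from RefSeq (GRCm38.p6), and no window was used for 7 members.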

Additional observations from a re-analysis of the deposited data

How the results depend on the processing

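The number of members called depended on how the array numbers and the spread were modelled. For the 3 lines against parental cells (CIR-1 first) and for any line difference, the counts of 6, 8, 4 and 7 became 14, 16, 15 and 17 with the replicate block (lower or, for any line, called: 3.47%, 2.90%, 2.42% and 13.5% of all genes), and 17, 26, 19 and 23 with the block and no Hyper-IL-6 arrays (4.53%, 4.05%, 3.66% and 18.3%). Without all arrays numbered 1 and 2 they were 3 in CIR-1 (2.17%) and 8 in CIR-3 (11.5%), and with the compared arrays alone 2 (1.13%) and 1 (0.502%). Array weights gave 19 in CIR-2 (3.89%), 10 in CIR-3 (11.9%) and 17 for any line (22.2%), and quantile normalization 12 in CIR-3 (1.89%) and 11 for any line (8.09%). For GFP-PFC array weights gave 1 (5.38%), and for Hyper-IL-6 against no stimulation array weights (17.4%) and leaving out numbers 1 and 2 (18.4%) each gave 1. For numbers 3 and 4 against 5 and 6 the count of 9 became 17 with weights (3.06% of all genes higher), 5 at exon level (0.776%), 16 with quantile normalization (2.28%), 14 without dim genes (2.61%) and 2 with all 27 arrays (0.231%). With each array left out in turn, the counts ranged from 4 to 6 in CIR-1, 5 to 8 in CIR-2, 4 to 6 in CIR-3, 6 to 8 for any line, 22 to 25 for numbers 1 and 2, and 4 to 13 for the later numbers, and stayed at 0 for the stimulations. The cause of these changes was not tested. With the Hyper-IL-6 arrays kept in the blocks of their numbers, the block changed no call of the stimulation comparisons.

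The median member difference kept its sign under every alternative run in the lines, at -0.133 to -0.09 in CIR-1, -0.173 to -0.129 in CIR-2 and -0.159 to -0.09 in CIR-3, and for the later numbers, at 0.075 to 0.098. It crossed 0 for GFP-PFC (-0.017 to 0.003), Hyper-IL-6 against no stimulation (-0.023 to 0.025), Hyper-IL-6 against GFP-PFC (-0.018 to 0.019) and numbers 1 and 2 (-0.022 to 0.013). Of the single genes, Tyms reversed at exon level for numbers 1 and 2, to 0.06. All 38 members had means above the lower quartile of the genes.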

Other observations

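Other gene lists, chosen with earlier results of these data known, also differed between array numbers. Between numbers 1 and 2 and the later ones, 18 of 29 mitotic genes were called higher and 3 lower (limma), with a median of 0.11, where 16.9% of all genes were called higher and 24.9% lower. Of 37 other replication genes 17 were higher and 5 lower, and of 27 G1/S regulators 10 were higher and 13 lower. Between numbers 3 and 4 and numbers 5 and 6, where 1.47% of all genes were called higher, 7 of the other replication genes, 3 of the G1/S regulators, 2 of 18 checkpoint and repair genes and 1 mitotic gene were, beside 9 of the 38 members. These differences have no explanation in the labels.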
